A study of Danio rerio with 8 samples.

Results

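The genes described here are 9 AP-1 and EGR immediate early genes of the zebrafish, measured in blood cells sorted from the adult kidney. They are the JUN family genes jun, junba and junbb, the FOS family genes fosab and fosl1a, the ATF family gene atf3, and the zinc finger genes egr1, egr2b and egr3. A probe set was taken as a member when the platform annotation gave it a single gene symbol equal to a listed name. That rule found 10 probe sets for 9 of 19260 named genes, 2 of them for egr3, among 75212 probe sets in all. All 9 genes lay above the level used to set dim genes aside and were tested with 13774 genes in total. The brighter probe set stood for egr3.

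Each sample was RNA from the kidneys of 4 fish at 60 days post fertilisation, with 2 independent samples per group. The fish were wild type or 142ab-/-, in which both zebrafish genes for miR-142-3p, a microRNA abundant in blood cells, were knocked out. Cells were sorted as myelomonocytes, the granulocyte and monocyte lineage, or as WKMs, the whole kidney marrow without its erythrocytes. The 4 groups were therefore wild-type myelomonocytes, 142ab-/- myelomonocytes, wild-type WKMs and 142ab-/- WKMs, hybridised on 8 one-colour Affymetrix arrays from 200 ng of total RNA each. The kidney is where adult zebrafish form their blood. The sources used here give neither the sort gates nor the mutant alleles, and no probe set was named for mir142a or mir142b (0 found), so the genotype labels were not checked on their own target.

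AP-1 is a family of dimeric transcription factors in which JUN proteins pair with each other or with FOS or ATF proteins through a basic leucine zipper. EGR proteins are zinc finger factors that bind GC-rich promoter elements. Many genes of both families are switched on within minutes of a stimulus, without new protein synthesis. A common route is MAP kinase activation of the serum response factor, its ETS partners and CREB at their promoters. In mammals they take part in macrophage differentiation, lymphocyte activation and cytokine expression, and their transcripts are also known to accumulate while a tissue is dissociated and sorted. The kidneys here were dissected on ice, filtered to single cells and sorted before RNA extraction.

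Values are deposited log2 probe set levels, 1 per array, and a level of 1 gene cannot be set against that of another because probe sets differ in brightness. Replicate arrays correlated at r = 0.988 to 0.992 across genes and arrays of different groups at 0.907 to 0.974, where genes are not independent replicates. Array medians lay between 5.49 and 5.54. In bulk samples such as these, fewer cells of a type and less RNA per cell cannot be told apart. Differences were tested with limma on all genes at once, errors of differences are the standard errors of that fit, and a gene was called at a Benjamini-Hochberg adjusted p under 0.05. With 2 arrays per group, the number of arrays limits the precision.

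**Figure D1:**
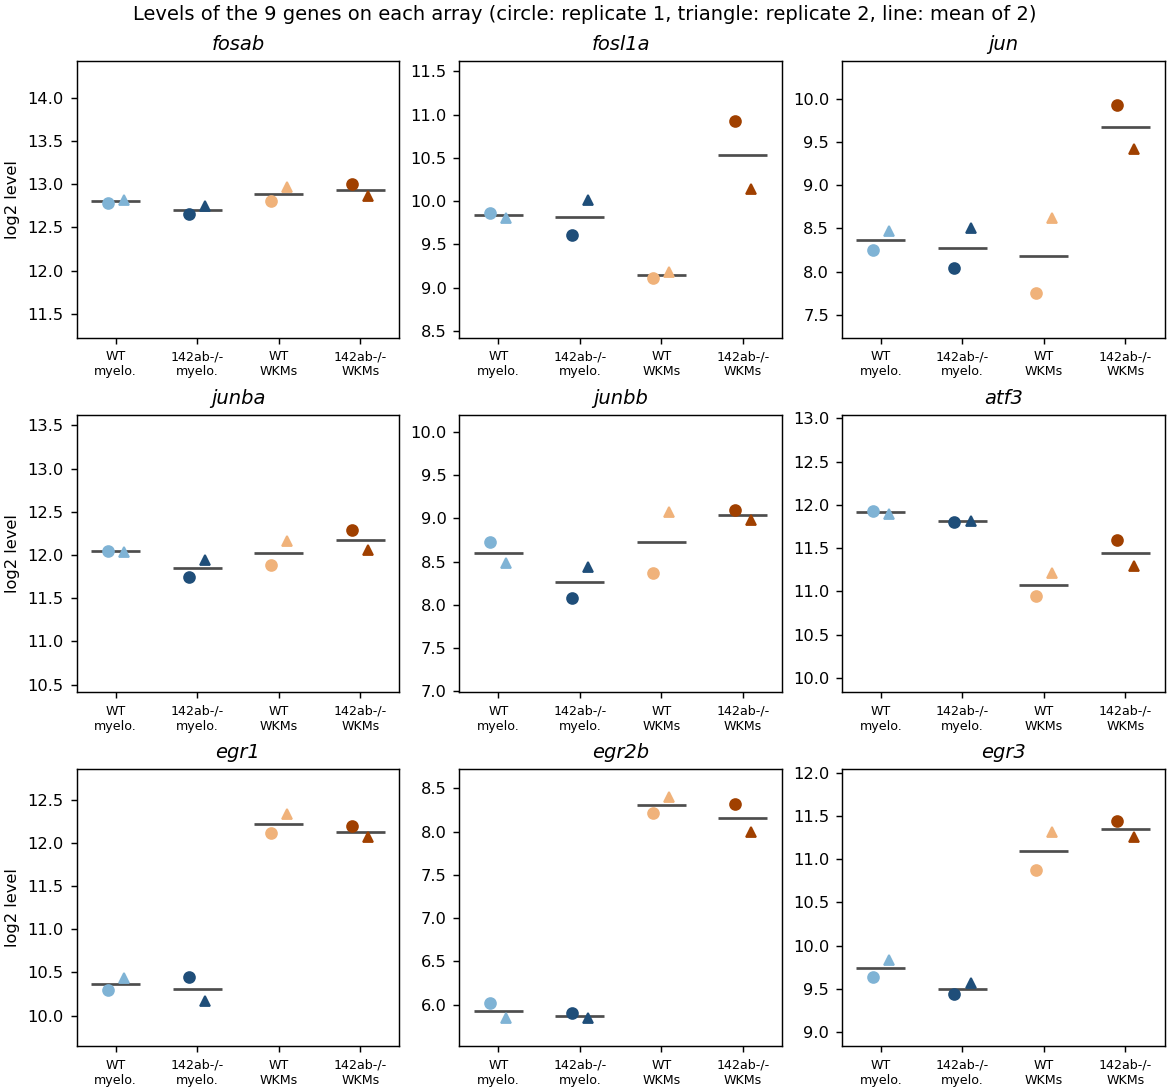
Log2 level of each of the 9 genes (y axis, panels span the same number of log2 units) on each array (points) in the 4 groups (x axis), with the mean of a group as a bar. The arrays of 142ab-/- WKMs stand above all others for jun and fosl1a, and the WKM arrays of both genotypes stand above the myelomonocyte arrays for egr1, egr2b and egr3.

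The 142ab-/- genotype was compared with wild type first, in each cell population. In WKMs, jun and fosl1a were higher in 142ab-/- than in wild type, 2.81-fold and 2.61-fold, and these were the 2 of 9 members called in that comparison, against 9.28% of all genes tested. The other 7 members were not called in WKMs, and their log2 differences ran from -0.15 for egr2b to 0.37 for atf3. In myelomonocytes, limma called 0 of 9 members, against 12.4% of all genes tested. An unadjusted p under 0.05 in limma was reached by 0 of the 9, against 3754 of all 13774 genes tested. The log2 differences of the members in myelomonocytes ran from -0.34 for junbb to -0.02 for fosl1a.

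The question whether the knockout acted differently in the 2 populations was asked by subtracting the WKM difference from the myelomonocyte difference. No member passed that test (0 of 9 by limma), in which 0.276% of all genes were called. At an unadjusted p under 0.05 in limma stood 3 of the 9, beside 1924 of all 13774 genes tested. The 3 were jun, fosl1a and atf3. A difference between the populations in the response of jun or fosl1a is therefore not established here, although each was called in WKMs and not in myelomonocytes.

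The gene jun encodes the JUN subunit, which can form AP-1 alone or with a FOS partner. Its level was 7.75 and 8.61 on the wild-type WKM arrays and 9.92 and 9.42 on the 142ab-/- WKM arrays. Both knockout arrays lay above both wild-type arrays, and the wild-type arrays were 0.87 apart. The log2 difference was 1.49 ± 0.29 (SE, n = 2 against 2), with a 95% interval of 0.81 to 2.17 and an adjusted p of 0.0205 in limma. Ordered by signed difference from the highest, jun was 51st of all 13774 genes, and it was 89th by size in either direction. In myelomonocytes, jun lay at 8.25 and 8.47 in wild type and at 8.04 and 8.51 in 142ab-/-, so the groups overlapped. The log2 difference there was -0.09 ± 0.29, with an adjusted p of 0.886. The difference between these differences was -1.58 ± 0.42, with an adjusted p of 0.169. In order of level, 142ab-/- WKMs came first for jun, and the other 3 groups overlapped one another.

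The call for jun in WKMs rested on all 4 arrays but 1. With wild-type replicate 1 left out, the difference of jun was 1.06 and no longer called (adjusted p = 0.0901). It was also not called with 142ab-/- replicate 1 left out (1.24, adjusted p = 0.110) or with 142ab-/- replicate 2 left out (1.74, adjusted p = 0.0549). Leaving out wild-type replicate 2 kept the call.

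The paralogues junba and junbb encode JunB proteins, which in mammals partner FOS proteins and can oppose JUN. On the wild-type arrays junba lay at 12.05 and 12.03 in myelomonocytes and at 11.88 and 12.16 in WKMs. On the 142ab-/- arrays it lay at 11.75 and 11.94 in myelomonocytes and at 12.29 and 12.05 in WKMs. The wild-type myelomonocyte arrays lay within the range of the wild-type WKM arrays, and the genotypes overlapped in WKMs but not in myelomonocytes. The genotype differences of junba were -0.20 ± 0.13 in myelomonocytes and 0.15 in WKMs, with adjusted p-values of 0.391 and 0.556.

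For junbb the wild-type levels were 8.72 and 8.48 in myelomonocytes and 8.37 and 9.08 in WKMs. The 142ab-/- levels of junbb were 8.09 and 8.44 in myelomonocytes and 9.10 and 8.98 in WKMs. Both knockout myelomonocyte arrays were below both wild-type ones, and in WKMs the genotypes overlapped. Neither difference passed the test (-0.34 ± 0.23, adjusted p = 0.375 in myelomonocytes and 0.32, adjusted p = 0.432 in WKMs).

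Of the FOS genes, fosl1a encodes FOSL1 (Fra-1), a FOS partner of JUN that lacks the strong transactivation domain of FOS. Its level was 9.11 and 9.18 in wild-type WKMs and 10.93 and 10.14 in 142ab-/- WKMs. The groups did not overlap, and the knockout arrays were further apart from each other than the wild-type arrays were. The log2 difference was 1.39 ± 0.24 (SE, n = 2 against 2), with a 95% interval of 0.84 to 1.94 and an adjusted p of 0.0129 in limma. By signed difference from the highest, fosl1a was 59th of all genes, and by size in either direction it was 108th. In myelomonocytes fosl1a lay at 9.87 and 9.81 in wild type and at 9.61 and 10.02 in 142ab-/-, with the wild-type values inside the knockout range. The difference there was -0.02 ± 0.24, with an adjusted p of 0.963. The difference between the differences was -1.41 ± 0.34, with a 95% interval of -2.19 to -0.63 and an adjusted p of 0.144. In order of level, 142ab-/- WKMs came first for fosl1a, the myelomonocytes of both genotypes followed and overlapped, and wild-type WKMs came last.

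The WKM call of fosl1a was lost when either wild-type WKM array was left out (1.35, adjusted p = 0.0769 without replicate 1 and 1.42, adjusted p = 0.0634 without replicate 2). It held without either 142ab-/- WKM array.

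The gene fosab encodes a zebrafish FOS protein. It lay at 12.78 and 12.82 in wild-type myelomonocytes and at 12.65 and 12.75 in 142ab-/- myelomonocytes. In WKMs it lay at 12.80 and 12.97 in wild type and at 13.00 and 12.87 in 142ab-/-. All 8 values of fosab fell within a narrow band, the genotypes overlapped in WKMs, and the knockout myelomonocyte arrays were just below the wild-type ones. Its differences were -0.10 ± 0.10 (adjusted p = 0.592) in myelomonocytes and 0.05 (adjusted p = 0.839) in WKMs. Its close paralogue fosaa is described with the other AP-1 genes.

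The stress-responsive gene atf3 encodes a leucine zipper protein that pairs with JUN proteins and, as a dimer with itself, represses transcription in mammals. It lay at 11.93 and 11.90 in wild-type myelomonocytes and at 11.81 on both 142ab-/- myelomonocyte arrays. In WKMs atf3 lay at 10.94 and 11.21 in wild type and at 11.59 and 11.30 in 142ab-/-. The knockout arrays were below the wild-type arrays in myelomonocytes and above them in WKMs, with no overlap in either population. The share of all genes whose genotypes did not overlap was not counted, for atf3 or for any other member. The log2 differences of atf3 were -0.10 ± 0.13 (adjusted p = 0.671) in myelomonocytes and 0.37 ± 0.13 (adjusted p = 0.129) in WKMs, so neither was called. The difference between them was -0.47 ± 0.19, with an adjusted p of 0.315.

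The EGR genes showed no called genotype difference in either population. For egr1, wild-type myelomonocytes lay at 10.29 and 10.43 and 142ab-/- myelomonocytes at 10.45 and 10.17. In WKMs egr1 lay at 12.11 and 12.33 in wild type and at 12.19 and 12.06 in 142ab-/-. The genotypes overlapped in both populations. The differences for egr1 were -0.05 ± 0.13 in myelomonocytes and -0.09 in WKMs, with adjusted p-values of 0.843 and 0.728.

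The gene egr2b, which in mammals acts in hindbrain, myelin and lymphocyte programmes, lay at 6.02 and 5.84 in wild-type myelomonocytes and at 5.90 and 5.84 in 142ab-/- myelomonocytes. These levels were close to 5.52, the level below which genes were treated as dim, so a further fall could not have been measured well. In WKMs egr2b lay at 8.22 and 8.41 in wild type and at 8.32 and 8.002 in 142ab-/-, which overlapped. Its genotype differences were -0.06 (adjusted p = 0.832) and -0.15 (adjusted p = 0.548).

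For egr3, wild-type levels were 9.64 and 9.83 in myelomonocytes and 10.87 and 11.32 in WKMs. The 142ab-/- levels of egr3 were 9.44 and 9.57 in myelomonocytes and 11.44 and 11.26 in WKMs. The knockout arrays lay below the wild-type arrays in myelomonocytes and overlapped them in WKMs. The differences were -0.23 ± 0.16 (adjusted p = 0.393) and 0.25 (adjusted p = 0.377). The second, dimmer probe set of egr3 lay at 7.02 and 6.95 in wild-type and at 6.40 and 6.52 in 142ab-/- myelomonocytes. Its difference there, -0.53 ± 0.17, also missed the threshold (adjusted p = 0.0786, with every probe set as its own feature), so both probe sets of egr3 had the same sign.

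**Figure D2:**
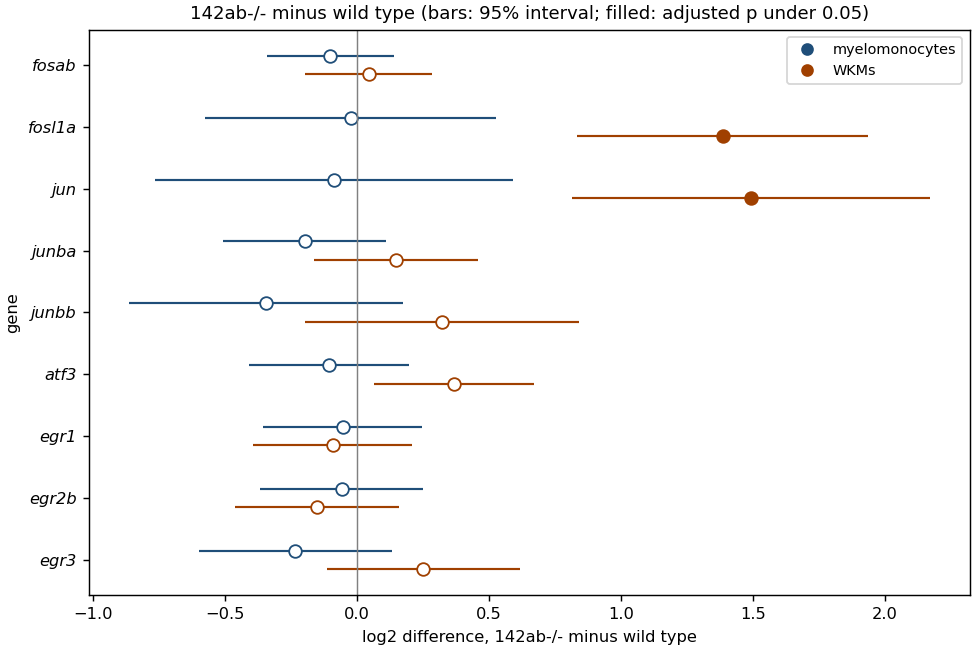
Log2 difference, 142ab-/- minus wild type (x axis), for each gene (y axis) in myelomonocytes and in WKMs, with points for the fitted difference and bars for its 95% interval. The WKM intervals of jun (0.81 to 2.17) and fosl1a (0.84 to 1.94) lie well above 0, and the 9 myelomonocyte points lie a little below 0.

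Over the 9 members, the median genotype difference was 0.25 in WKMs, where 7 members lay above 0, and -0.10 in myelomonocytes, where all 9 lay below 0. The median of all genes tested was 0.01 in each comparison. The common sign in myelomonocytes depended on single arrays, since 2 members turned above 0 without wild-type replicate 1, without wild-type replicate 2 or without 142ab-/- replicate 1, and 1 did without 142ab-/- replicate 2.

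The arrays of the same group also differed from each other in a shared way. In wild-type WKMs, replicate 2 was higher than replicate 1 for 9 of 9 members, by 0.07 to 0.87 with a median of 0.27, against 45.4% of all genes tested. In 142ab-/- WKMs, replicate 1 was the higher array for 9 of 9 members, by 0.12 to 0.79 with a median of 0.23, against 52.6% of all genes. The wider list of other immediate early genes went the same way in both groups, with 46 of 55 genes higher on those arrays each time. The other AP-1 and dimer partner genes did so in 142ab-/- WKMs, where 20 of 23 were higher on replicate 1, but in wild-type WKMs 11 of 23 were higher on replicate 2. Of 12 heat shock genes, which respond to protein damage and handling, 8 were higher on replicate 1 in wild-type WKMs, where 54.5% of all genes were. In 142ab-/- WKMs 9 of the 12 were higher on replicate 2, where 47.4% of all genes were. In wild-type myelomonocytes 5 of 9 members were higher on replicate 1, against 56.0% of all genes tested. In 142ab-/- myelomonocytes 7 of 9 members were higher on replicate 2, against 37.5% of all genes. The part of this replicate spread in the WKM genotype differences was not tested beyond the values without single arrays given above.

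**Figure D3:**
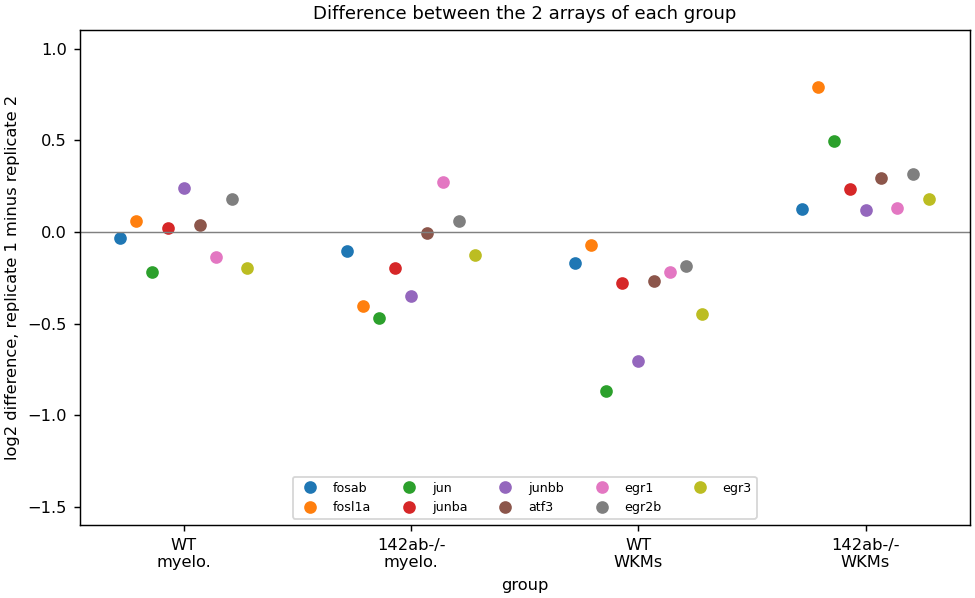
Log2 level on replicate 1 minus replicate 2 (y axis) of each of the 9 genes (points) within each of the 4 groups (x axis). All points lie below 0 in wild-type WKMs and above 0 in 142ab-/- WKMs, and they fall on both sides of 0 in the myelomonocyte groups.

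Cell type markers were set beside the WKM comparison, since these samples mix cell types. B cell markers had 0 called higher and 2 called lower of 7 tested in 142ab-/- WKMs, with a summed log2 level of 12.26 to 12.34 in wild type and 11.68 to 12.02 in 142ab-/-. T cell markers had 2 of 5 called lower, with summed levels of 11.37 to 11.48 and 11.08 to 11.24. For neutrophil markers limma called 0 of 9, with 3 at an unadjusted p under 0.05, and summed levels were 15.53 on both wild-type arrays and 15.60 on both 142ab-/- arrays. For erythroid markers limma called 0 of 9, with 2 at an unadjusted p under 0.05, and summed levels of 15.13 to 15.30 and 15.33 to 15.50, so erythroid transcripts were present in samples labelled as free of erythrocytes. Monocyte and macrophage markers had 2 of 8 called lower, with summed levels of 14.13 to 14.18 and 14.11 to 14.24. Kidney tubule and podocyte markers had 1 of 13 called lower, with summed levels of 12.05 to 12.14 in wild type and 11.59 to 11.94 in 142ab-/-. Endothelial markers, with summed levels of 10.33 to 10.36 and 10.02 to 10.18, had 0 of 4 called by limma and 1 at an unadjusted p under 0.05. Among these lists, the summed levels of the 2 genotypes overlapped only for monocyte and macrophage markers. The part of these shifts in the higher jun and fosl1a levels was not tested. In the myelomonocyte comparison, where no member was called, 6 of 9 erythroid markers were called lower in 142ab-/-. Of 13 kidney tubule and podocyte markers, 4 were called higher in 142ab-/- myelomonocytes. Of 8 monocyte and macrophage markers, 1 was called higher and 2 lower there, with 6 at an unadjusted p under 0.05 in limma and a median of -0.45. Endothelial markers had 1 of 4 called lower, T cell markers 1 of 5 called higher, and B cell markers 1 of 7 called higher and 1 lower. Neutrophil, thrombocyte and stromal markers had 0 calls.

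The next comparison asked how myelomonocytes differed from WKMs within a genotype. The EGR genes were lower in myelomonocytes than in WKMs in both genotypes, by 2.57-fold to 5.21-fold in wild type. In wild type 4 of 9 members were called, egr1, egr2b and egr3 lower and atf3 higher, against 35.6% of all genes tested. In 142ab-/- 6 of 9 members were called, all lower in myelomonocytes, against 44.1% of all genes. These were egr1, egr2b, egr3, jun, junbb and fosl1a. The comparisons in the 2 genotypes share no samples, and calls were common among all genes in each. The one in 142ab-/- uses the same 142ab-/- WKM arrays as the genotype comparison in WKMs. The calls of jun and fosl1a in those comparisons are therefore not independent.

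Among the EGR genes, egr2b differed most, with log2 differences of -2.38 ± 0.13 in wild type (5.21-fold lower, adjusted p = 4.6e-05) and -2.29 in 142ab-/- (adjusted p = 4.07e-05). It was 74th from the bottom of all 13774 genes in wild type. For egr1 the differences were -1.85 ± 0.13 (3.62-fold lower, adjusted p = 9.03e-05) and -1.82 (adjusted p = 7.3e-05), and it was 155th from the bottom in wild type. For egr3 they were -1.36 ± 0.16 (2.57-fold lower, adjusted p = 0.000659) and -1.84 (adjusted p = 0.00013). The dimmer probe set of egr3 gave -0.83 in wild type (adjusted p = 0.0066) and -1.59 in 142ab-/- (adjusted p = 0.00026). Every myelomonocyte array lay below every WKM array for egr1, egr2b and egr3, and these 6 calls held under every alternative setting. The share of all genes with such a separation of the arrays was not counted.

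The AP-1 members gave smaller and mixed differences in wild type. There atf3 was 1.79-fold higher in myelomonocytes (0.84 ± 0.13 on the log2 scale, adjusted p = 0.00225), and fosl1a was 0.69 ± 0.24 higher without passing the test (adjusted p = 0.0545), although it was called in 7 of 18 alternative settings. The wild-type arrays of jun, junba, junbb and fosab gave no called difference. In 142ab-/-, jun was lower in myelomonocytes by a log2 difference of -1.40 ± 0.29 (adjusted p = 0.00607), junbb by -0.78 ± 0.23 (adjusted p = 0.0233) and fosl1a by -0.72 ± 0.24 (adjusted p = 0.0405). The last 2 calls were the least secure, since that of fosl1a was lost in 8 and that of junbb in 4 of 18 alternative settings. Without 142ab-/- WKM replicate 1, the difference of fosl1a was -0.32 (adjusted p = 0.204). Without 142ab-/- myelomonocyte replicate 1, that of junbb was -0.61 (adjusted p = 0.116). The difference for atf3 in 142ab-/- was 0.37 (adjusted p = 0.0526) and was called in 6 of 18 alternative settings. Those of fosab (-0.23, adjusted p = 0.107) and junba (-0.33, adjusted p = 0.0823) were not called.

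**Figure D4:**
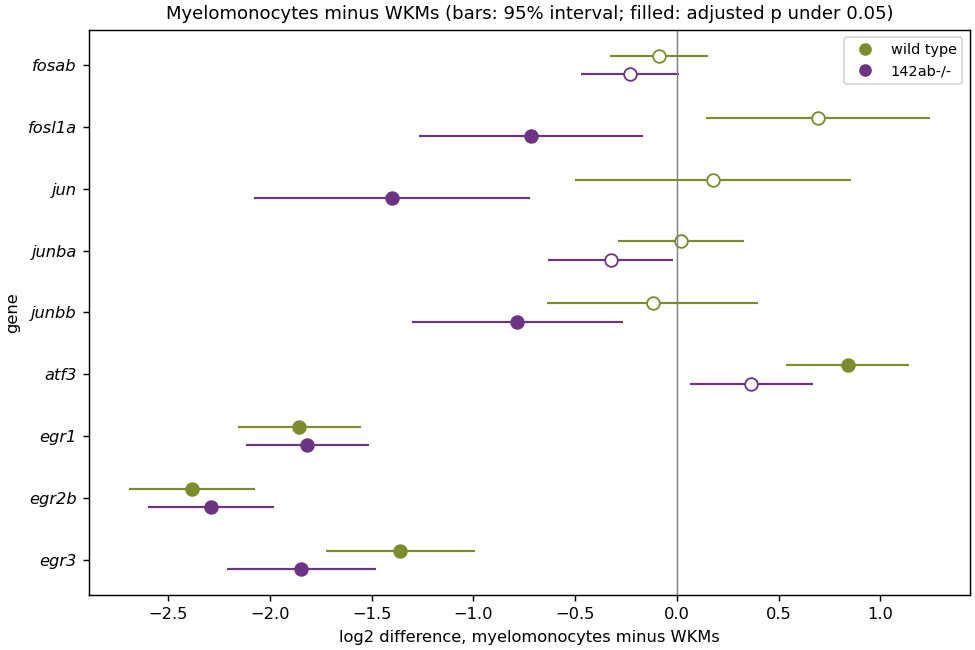
Log2 difference, myelomonocytes minus WKMs (x axis), for each gene (y axis) in wild type and in 142ab-/-, with points for the fitted difference and bars for its 95% interval. The 3 EGR genes lie far below 0 in both genotypes, while atf3 lies above 0 in wild type at 0.84 and jun lies below 0 in 142ab-/- at -1.40.

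Markers of several cell types moved along with this comparison. All 7 B cell markers tested and all 5 T cell markers tested were called lower in wild-type myelomonocytes than in wild-type WKMs. Of 9 neutrophil markers, 6 were called higher. In 142ab-/-, 6 B cell markers were called lower and 1, cd22, was called higher in myelomonocytes. There 4 of 5 T cell markers were called lower, and 7 of 9 neutrophil markers were called higher. Summed B cell levels were 9.44 to 9.64 in wild-type myelomonocytes, 10.41 to 10.64 in 142ab-/- myelomonocytes and 11.68 to 12.34 in WKMs of both genotypes. The B cell receptor subunit gene cd79b was below the dim level in myelomonocytes, at a mean of 5.29 in wild type and 5.31 in 142ab-/-. Summed T cell levels were 8.58 to 8.65 in wild-type and 9.26 to 9.74 in 142ab-/- myelomonocytes. Single genes stood out in these sums, as mean levels in myelomonocytes went from 8.10 in wild type to 10.04 in 142ab-/- for cd22 and from 7.15 to 8.95 for lck. They went from 5.83 to 5.13 for cd37, from 7.40 to 7.15 for cd79a and from 5.62 to 5.27 for zap70. The 142ab-/- means of cd37 and zap70 lay below the dim level of 5.52, so the falls of these genes could not be measured well. Erythroid markers were called lower in myelomonocytes for 7 of 9 genes in wild type and 9 of 9 in 142ab-/-. Their summed levels in myelomonocytes were 14.47 to 14.70 in wild type and 13.90 to 13.98 in 142ab-/-. Neutrophil markers mpx, the myeloperoxidase gene, and lyz, the lysozyme gene, were present in all groups, at mean log2 levels of 12.73 or more and 13.15 or more, and their levels in myelomonocytes were 13.07 and 13.29 in wild type. Of 8 monocyte and macrophage markers, 1 was called higher and 3 lower in myelomonocytes in wild type. In 142ab-/- 2 were called higher and 5 lower. Thrombocyte markers were called lower for 3 of 4 genes in each genotype. Endothelial markers were called higher in myelomonocytes for 3 of 4 genes in wild type and 2 of 4 in 142ab-/-. Of 13 kidney tubule and podocyte markers, 1 was called higher and 1 lower in wild type. In 142ab-/- 8 were called higher and 1 lower. The part of these cell types in the EGR and AP-1 differences between populations was not tested.

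The 23 other AP-1 and dimer partner genes tested, of 27 listed, gave 0 higher and 3 lower calls in 142ab-/- myelomonocytes and 0 higher and 1 lower call in 142ab-/- WKMs. That is 13.0% and 4.35% of the list, beside the 12.4% and 9.28% of all genes given above, and the list medians were -0.19 and 0.04. The gene jdp2a, whose mammalian counterpart is a repressor that pairs with JUN, was lower in both populations (-0.98, adjusted p = 0.00319 in myelomonocytes and -0.66, adjusted p = 0.0192 in WKMs). The WKM call of jdp2a was lost when any of the 4 WKM arrays was left out, with adjusted p-values of 0.0683 to 0.119. In myelomonocytes the repressor gene bach1a (-0.76, adjusted p = 0.00682) and the small MAF gene mafk (-0.99, adjusted p = 0.0455) were also lower, and the mafk call was lost in 8 of 18 alternative settings.

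Between populations, fosaa, the paralogue of fosab, was lower in myelomonocytes in wild type (-0.96, adjusted p = 0.000725) and in 142ab-/- (-1.59, adjusted p = 7.3e-05). The FOS gene fosb was also lower in both (-1.46, adjusted p = 0.00339 and -1.73, adjusted p = 0.00106). These 2 FOS genes had the sign of the EGR genes. Another FOS gene, fosl2, was not called in wild type (0.04, adjusted p = 0.863) and was lower in 142ab-/- (-0.71, adjusted p = 0.0144). That call of fosl2 was lost in 2 of 18 alternative settings. Neither fosl2l nor the member fosab was called in either genotype. In all, the list had 4 higher and 4 lower calls in wild type and 3 higher and 9 lower calls in 142ab-/-. That is 34.8% and 52.2% of the list, beside 35.6% and 44.1% of all genes, so its share of calls was near the background.

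Of the 55 other immediate early and fast feedback genes tested, 5 were called higher and 4 lower in 142ab-/- myelomonocytes. In 142ab-/- WKMs 8 were called higher and 2 lower. These are 16.4% and 18.2% of the list, beside 12.4% and 9.28% of all genes, with list medians of -0.09 and 0.07. Over the alternative settings the WKM calls of the list ranged from 2 to 10 higher and from 0 to 3 lower. The Krüppel-like factor gene klf11b was higher in both populations (1.41, adjusted p = 0.0013 and 1.39, adjusted p = 0.00186), as were the MYC gene mycb (0.86, adjusted p = 0.00271 and 0.74, adjusted p = 0.00638) and trib1, a pseudokinase gene (0.72, adjusted p = 0.018 and 0.78, adjusted p = 0.0165). The MAP kinase phosphatase gene dusp8a was lower in both (-0.78, adjusted p = 0.00237 and -0.51, adjusted p = 0.0148). In WKMs dusp4, a phosphatase gene induced by ERK signalling, was higher (0.79, adjusted p = 0.0223). Of these WKM calls, those of trib1, dusp8a and dusp4 were lost in 3, 4 and 4 of 18 alternative settings. The egr2a paralogue of egr2b was lower in myelomonocytes than in WKMs in both genotypes (-2.10, adjusted p = 0.000672 and -1.50, adjusted p = 0.00193). The EGR gene egr4 was not called in either genotype, and its wild-type difference was 0.23 to 0.43 over the alternative settings. Between populations the list had 10 higher and 12 lower calls in wild type and 10 higher and 17 lower in 142ab-/-. That is 40% and 49.1% of the list, beside 35.6% and 44.1% of all genes.

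The immediate early gene csrnp1a, whose mammalian counterpart encodes a nuclear protein induced by AXIN, was lower in 142ab-/- myelomonocytes (-1.30, adjusted p = 0.000583) and was the 1 gene of this list whose genotype difference itself differed between populations (-1.46 ± 0.16, adjusted p = 0.0262). That call was lost without any 1 of 7 arrays in turn, with adjusted p-values of 0.0556 to 0.0998. The nuclear receptor gene nr4a3 was higher in WKMs by 1.72 ± 0.48 but missed the threshold (adjusted p = 0.0666).

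**Figure D5:**
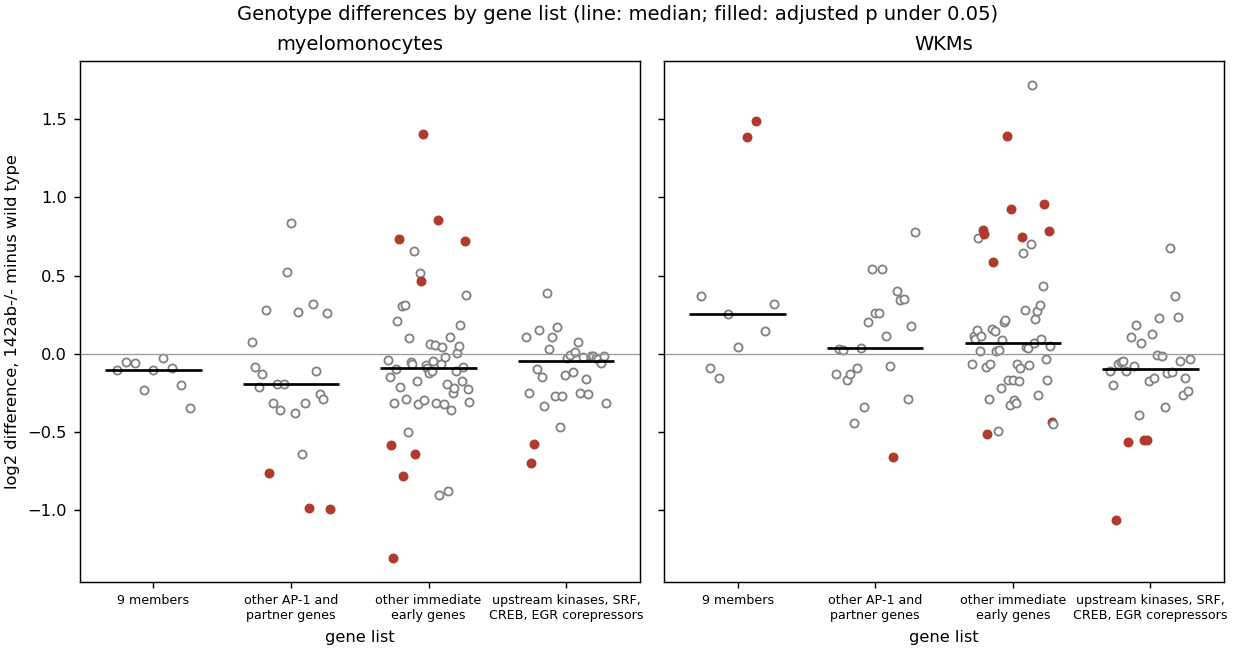
Log2 difference, 142ab-/- minus wild type (y axis), of each gene (points) of the members and of the other lists (x axis), in myelomonocytes and in WKMs, with called genes marked and the median of each list as a bar. The members' median lies at -0.10 in myelomonocytes and 0.25 in WKMs, and jun and fosl1a are the called members.

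Genes upstream of the members were set beside them. Tested genes of the ternary complex, MAP kinase and CREB pathways and the EGR corepressors numbered 32. Limma called 0 higher and 2 lower in 142ab-/- myelomonocytes, and 0 higher and 4 lower in 142ab-/- WKMs. That is 6.25% and 12.5% of the list, beside 12.4% and 9.28% of all genes, with list medians of -0.05 and -0.09. The CREB gene creb1b was lower in both (-0.70, adjusted p = 0.00732 and -1.06, adjusted p = 0.00196), under every alternative setting. The related gene crema was lower in myelomonocytes (-0.57, adjusted p = 0.0228), a call lost in 4 of 18 alternative settings. In WKMs the MAP kinase cascade genes map2k2a (-0.56, adjusted p = 0.0112), map3k5 (-0.55, adjusted p = 0.0161) and map3k1 (-0.55, adjusted p = 0.0387) were lower, and each of these calls was lost in 3 or more of 18 alternative settings.

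The NAB genes encode corepressors that bind EGR proteins and are themselves induced by EGR factors in mammals. All 3 tested were lower in myelomonocytes than in WKMs, the direction of egr1, egr2b and egr3. The differences in wild type and in 142ab-/- were -0.76 (adjusted p = 0.0168) and -1.59 (adjusted p = 0.00045) for nab1a, -0.91 (adjusted p = 0.000545) and -1.06 (adjusted p = 0.000185) for nab1b, and -0.52 (adjusted p = 0.0113) and -0.90 (adjusted p = 0.000683) for nab2. The wild-type calls of nab1a and nab2 were lost in 2 and 3 of 18 alternative settings. The NAB genes were picked after their values were seen, and the whole list of 32 had 7 higher and 5 lower calls in wild type and 10 higher and 6 lower in 142ab-/-.

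Of 11 tested genes known in mammals as targets of AP-1 or EGR1, 0 were called higher and 1 lower in 142ab-/- myelomonocytes. In 142ab-/- WKMs 1 was called higher and 1 lower. That is 9.09% and 18.2% of the list, beside 12.4% and 9.28% of all genes, with list medians of -0.21 and 0.34. The haem oxygenase gene hmox1a was lower in both (-1.31, adjusted p = 0.00238 and -1.21, adjusted p = 0.00441). The cytokine gene tnfb was higher in WKMs (0.82, adjusted p = 0.0416), a call lost in 9 of 18 alternative settings. Between populations the target list had 6 higher and 2 lower calls in wild-type myelomonocytes, with a median of 0.40, and 3 higher and 4 lower calls in 142ab-/-, with a median of 0.11. That is 72.7% and 63.6% of the list, beside 35.6% and 44.1% of all genes. The list holds mmp9 and mmp13a, which are also neutrophil markers here, and ptgs2b, which is also in the immediate early list. Each was among the higher calls in wild type, so these calls are not separate from those of the other lists. Of 12 heat shock genes tested, 1 was called in myelomonocytes, where the small heat shock gene hspb1 was lower (-1.63, adjusted p = 0.00222). In WKMs limma called 0 of the 12, with 3 at an unadjusted p under 0.05, and their median there was 0.03.

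Across the 8 arrays the levels of many members rose and fell together. Of the 36 pairs of members, 28 had a Pearson r above 0, 8 an r above 0.8 and 2 an r below -0.8. The highest was 0.99, between egr1 and egr2b, and the lowest was -0.86, for atf3 with an EGR gene. The 8 arrays are 4 groups of 2, so these values carry no test. They hold the spread within groups as well as the group pattern. The average of the scaled members was -0.41 and 0.48 on the wild-type WKM arrays and 1.24 and 0.54 on the 142ab-/- WKM arrays. On the myelomonocyte arrays it ran from -0.91 to -0.24. The genes whose levels were most like the average of the 9 scaled members, among 1732 genes with an SD of at least 0.5, were NFKBID (r = 0.991), dusp5 (0.964), ptgis (0.956), il15l (0.948), slc43a3b (0.947), klf4 (0.943), mafk (0.932) and homer3b (0.931).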

How the data were processed

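The deposited table holds the authors' log2 level of each probe set on each array. That the scale is log2 was read from the range of the values. The sources used here do not give the authors' background correction, summarisation or normalization, and nothing further was done to the values. No scan dates were at hand for a test of batches.

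Gene names came from the annotation of the array platform, where 20806 probe sets had 1 symbol, 855 several and 53551 none. The brightest probe set stood for a gene, and genes with a mean under 5.52, the 50th percentile of all probe sets, were set aside. A single fit in limma 3.58.1 (R 4.3.3) held all 8 arrays with a mean per group (4 residual and 4.00 prior degrees of freedom). All tests were two-sided, with Benjamini-Hochberg adjustment over 13774 genes. On simulated data for the myelomonocyte genotype comparison, this recovered 28%, 76%, 98% and 100% of log2 changes of 0.5, 1, 2 and 3. The simulation raised far fewer genes than were called in the data. The adjustment was therefore stricter there, and these shares do not give the recovery in the data.

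The labels call the samples biological replicates. They do not say that a number is shared between groups, so the numbers were not used as pairs. Same-numbered samples of the 2 populations deviated together at r = 0.405 in wild type and 0.267 in 142ab-/-. Between genotypes r was -0.000189 to 0.116. The replicate block fits a single term across both genotypes, so a pairing of the populations within a genotype was not tested. The members and lists were chosen with earlier results of these data known. Of the other lists, up to 5 called genes per genotype comparison with the smallest adjusted p were named. The list genes named between populations (fosaa, fosb, fosl2, fosl2l, egr2a, egr4 and the NAB genes), and nr4a3, were chosen after their values were seen. Promoters and proteins of the members were not analysed here.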

Additional observations from a re-analysis of the deposited data

Results flagged for a closer look

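Of the other AP-1 genes, mafk, fosaa and maff had knockout arrays below wild type in myelomonocytes and above it in WKMs, without overlap. Their log2 differences were -0.99 and 0.78, -0.38 and 0.26, and -0.26 and 0.35, of which only the first was called. For none of these genes did the difference of the genotype differences pass limma's test (adjusted p = 0.117, 0.158 and 0.184). The share of all genes with this pattern was not counted. For atf3 the knockout arrays also moved opposite ways in the 2 populations, with both below wild type in myelomonocytes and both above it in WKMs. The difference of the genotype differences was -0.47 on the log2 scale, and it did not pass limma's test (adjusted p = 0.315, with a range of 0.187 to 0.604 over the alternatives). For csrnp1a the same difference was -1.46 and did pass (adjusted p = 0.0262), with a range of adjusted p from 0.00829 to 0.0998 over the alternatives.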

How the results depend on the processing

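For the 9 members, 801 differences were recomputed under alternatives to the dim level, the choice of probe set, the normalization, the variance model, the arrays in the fit and the replicate block, and without each array in turn. Of these, 769 stayed on their side of the threshold, 17 lost a call, 15 gained a call and 0 called differences reversed. Most of the differences were not called to begin with, and many alternatives left the estimate unchanged. Only egr3 had 2 probe sets, and an array outside a comparison does not enter its difference. The 769 is therefore no measure of how secure the calls are. The number of members called for 142ab-/- against wild type in WKMs ranged from 0 to 2 when 1 array was left out. The counts of all genes called moved more. With 1 array left out they ranged from 719 to 1483 for the genotype comparison in myelomonocytes, from 361 to 1392 in WKMs, from 1 to 25 for the difference of the genotype differences, and from 2950 to 5293 between populations in wild type. With only the 4 arrays compared, 1108 genes were called in the myelomonocyte genotype comparison. For the difference of the genotype differences, 24 genes were called after quantile normalization, 94 with a variance trend and 77 with the replicate block. The cause of these moves was not tested, except that leaving out an array leaves a group of 1, assumed to vary like the others. The replicate block changed no call of a member. The levels of egr2b in myelomonocytes lay close to background, which limits how low a value could be measured there.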
